A study of Mus musculus with 18 samples.

Results

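The 10 genes that make, degrade, export or sense sphingosine-1-phosphate (S1P) were followed in the mouse kidney under social stress and fluoxetine. They were taken by gene symbol, 10 of the 32675 genes of the expression table. The members are the kinases Sphk1 and Sphk2, the lyase Sgpl1, the phosphatase Sgpp1, the exporter Spns2 and the receptors S1pr1, S1pr2, S1pr3, S1pr4 and S1pr5. Bulk RNA was sequenced from the right kidneys of 18 wild-type male C57BL/6 mice, labelled as 6-week, 6 mice to a group. Ctrl mice were not defeated. The study's methods state that they were handled daily and name no injection for them. PBS mice went through chronic social defeat stress (CSDS), in which an aggressive CD-1 mouse attacked them for 10 min a day on 14 days, with daily intraperitoneal injection of phosphate-buffered saline. FLX mice went through the same stress with fluoxetine, a serotonin reuptake inhibitor, at 10 mg per kg per day in the same volume. If Ctrl mice were not injected, injection and defeat cannot be told apart in PBS versus Ctrl or in FLX versus Ctrl. No stressed mice without injection and no unstressed mice with fluoxetine are among the 18.

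S1P is a signaling lipid made when a sphingosine kinase phosphorylates sphingosine, which itself comes from ceramide. It is broken down for good by the lyase, turned back into sphingosine by phosphatases, or carried out of the cell by Spns2 to act on G protein-coupled receptors. Endothelial barrier function, vascular tone and the exit of lymphocytes from lymphoid organs depend on these receptors, and S1pr1 is a well-known receptor of endothelial cells.

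Total counts were 48928823 to 52073640 in FLX replicates 3 to 6 and 72149987 to 79061296 in the other 14 mice, so the least abundant members were measured with less precision in these 4 kidneys. The study deleted 1 PBS mouse without naming it, and PBS replicate 6 was taken as that mouse. It had 22.1 FPKM of S100a8, 32.8 of S100a9 and 49.2 of Lcn2, genes of neutrophils and of injured tubules, against at most 7.65, 13 and 4.42 in the other 5 PBS mice. PBS replicate 5 stood apart in brown fat RNA, with 214 FPKM of Ucp1 against at most 20.8 in the other PBS mice and 65.0 in any other kidney. Results are given over 5 PBS mice (17 mice in all). The calls of the members, and some other results, are then given over all 6 (18 mice). Kidney identity was visible in the 7 proximal tubule markers, with Slc34a1 and Slc22a6 the most abundant, whose summed level was 1130 to 1430 FPKM in Ctrl, 1140 to 1400 in the 5 PBS mice and 1120 to 1390 in FLX mice, against 772 in PBS replicate 6. Levels are in FPKM, a value scaled to transcript length and to sequencing depth, and differences between groups are log2 fold changes fitted by edgeR on the counts, with their standard error (SE) and with p adjusted over all genes tested. A gene is called where the adjusted p was under 0.05, with edgeR unless another tool is named. Replicates were separate mice.

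Promoter sequence is shown for Sphk1 and S1pr2, the members that moved in opposite directions in both PBS comparisons. RefSeq windows on GRCm38.p6, taken from 250 bases before each start, were at hand for 9 of the 10 members, all but S1pr1, and gave 14 windows. The stretches below end just before an annotated start and hold no annotated exon of the gene itself. Exons of other genes were not checked, and the Sphk1 stretch lies within the span of an antisense gene, Gm29292. Capitals mark an E-box (CACGTG) in Sphk1 and a full cyclic AMP response element, or CRE (TGACGTCA), in S1pr2. The Sphk1 stretch is chr11:116532194-116532443 on the plus strand, and 5 of 16 annotated Sphk1 transcripts start within 50 bases after it. The S1pr2 stretch is chr9:20976794-20977043 on the minus strand, and 1 of 4 annotated transcripts starts within 50 bases after it.
Sphk1: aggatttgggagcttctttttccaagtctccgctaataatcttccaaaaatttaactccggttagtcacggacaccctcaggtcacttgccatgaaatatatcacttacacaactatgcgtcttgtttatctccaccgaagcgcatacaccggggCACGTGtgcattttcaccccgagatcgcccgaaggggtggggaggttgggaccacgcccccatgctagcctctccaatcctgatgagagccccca
S1pr2: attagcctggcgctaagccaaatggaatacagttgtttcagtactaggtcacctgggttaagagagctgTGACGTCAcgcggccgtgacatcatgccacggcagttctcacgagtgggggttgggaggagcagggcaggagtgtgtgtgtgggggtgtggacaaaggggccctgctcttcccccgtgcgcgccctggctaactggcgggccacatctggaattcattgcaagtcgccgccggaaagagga

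Read 5′ to 3′, the E-box of Sphk1 began at -95 from its start and the full CRE of S1pr2 at -181. Both motifs read the same on either strand. An E-box was present in 6.02% of 32851 RefSeq windows of the same length, and the full CRE in 1.55%. Each was held by 1 of the 9 members. The CRE core (TGACG, 17.8% of windows) was searched on both strands, as were the motifs below. It lay within the full CRE of S1pr2 and in windows of Sphk2 and of other Sphk1 starts. A GC box (GGGCGG, 32.7% of windows) was in windows of Sphk2, Sgpl1, S1pr3 and S1pr5. The percents are per window, and Sphk1 had 5 of the 14 windows, so more chances of a match than each other member. AP-1 (TGANTCA, 6.75%) and TATAAA (12.4%) were each found in Sphk1 windows only among the members, at other starts than the one printed. These are matches of letters, and binding was not measured.

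In PBS versus Ctrl, 3 of the 10 members were called. Sphk1 and S1pr1 rose and S1pr2 fell, while 3.81% of all 20251 genes tested were called in this comparison. In FLX versus PBS, Sphk1 fell and S1pr2 rose, 2 of 10 members, against 0.726% of all genes. In FLX versus Ctrl only S1pr1 was called, 1 of 10 members, higher in FLX, against 3.67% of all genes. Over all 6 PBS mice the same genes were called in the same directions, against 4.28%, 0.557% and 1.77% of 19946 genes. Both stress groups were compared with the same Ctrl mice, and PBS mice enter 2 of the comparisons, so the comparisons are not independent. S1pr5 did not pass the filter on low counts, so 9 members were tested. The median of their log2 fold changes was 0.17 for PBS versus Ctrl, -0.09 in FLX versus PBS and 0.05 in FLX versus Ctrl, where the medians over all genes were -0.008, -0.003 and -0.009.

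**Figure D1:**
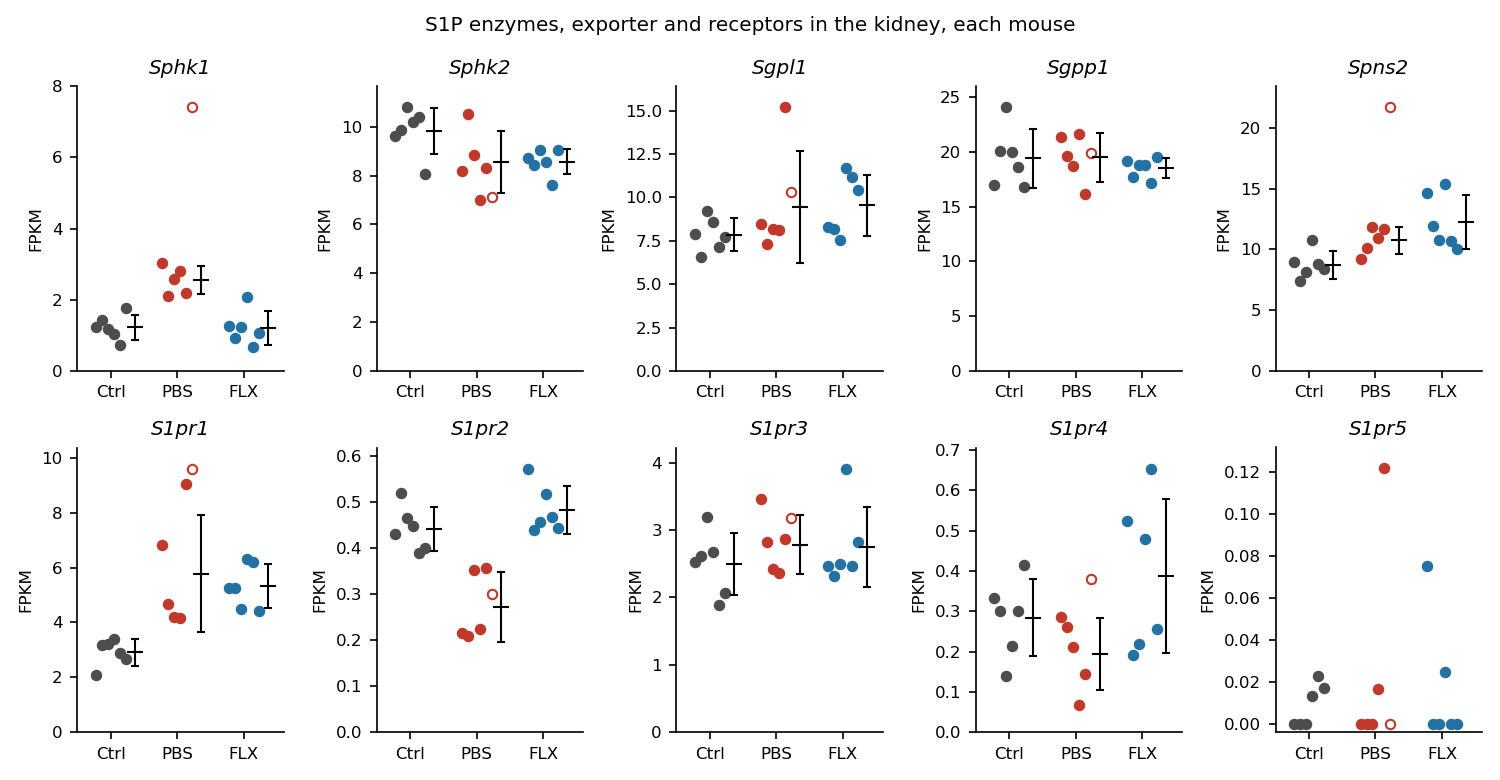
FPKM of the 10 members (vertical axes, from 0) in each mouse of the Ctrl, PBS and FLX groups. The open circle is PBS replicate 6, and black bars give mean ± SD without it (none drawn for S1pr5, which had no count in 11 of 18 mice). Sphk1 was at 2.11 to 3.03 in the 5 PBS mice and at most 2.08 in Ctrl and FLX mice, and S1pr2 was at most 0.357 in all PBS mice and at least 0.389 in Ctrl and FLX mice.

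Sphk1 (ENSMUSG00000061878, chromosome 11, 116530925 to 116536674, plus strand, GRCm38) encodes the inducible, mostly cytoplasmic sphingosine kinase. Its level was 0.721 to 1.76 FPKM in Ctrl mice (median 1.19, n = 6). PBS replicates 1 to 5 had 3.03, 2.11, 2.57, 2.81 and 2.20 FPKM, and PBS replicate 6 had 7.41. FLX mice had 0.677 to 2.08 FPKM (median 1.15, n = 6). Every PBS mouse was above every Ctrl and every FLX mouse, with the closest gap between FLX replicate 4 at 2.08 and PBS replicate 2 at 2.11, whereas Ctrl and FLX overlapped over most of their range. Mean levels were 1.22 ± 0.354 (SD, n = 6) for Ctrl mice, 2.54 ± 0.391 (SD, n = 5) for PBS mice and 1.21 ± 0.477 (SD, n = 6) for FLX mice. In PBS versus Ctrl mice Sphk1 rose by a log2 value of 1.06 (SE 0.23, edgeR adjusted p = 0.0150). Relative to PBS mice it fell by 1.18 on the log2 scale in FLX mice (SE 0.23, edgeR adjusted p = 0.0245). FLX versus Ctrl gave -0.11 (SE 0.22, edgeR adjusted p = 0.828). Exact two-sided permutation tests of mean log2(FPKM + 0.1) gave p = 0.00433, 0.00433 and 0.864 in the same order, where the smallest possible p is 0.00216. Over all 6 PBS mice the log2 fold changes were 1.44 in PBS versus Ctrl (SE 0.30, edgeR adjusted p = 0.0119) and -1.55 in FLX versus PBS (SE 0.30, edgeR adjusted p = 0.0275).

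Sphk1 is a gene the study itself picked out of these libraries, so its change is not independent evidence of a change in this system. Its rise was called without any 1 of the 17 mice, with an edgeR adjusted p of up to 0.0498 without PBS replicate 1. Its fall in FLX was not called in 6 of the 17 omissions (PBS replicates 1 and 4, FLX replicates 1, 2, 3 and 6), where the edgeR adjusted p was 0.0518 to 0.0810. In FLX replicates 1 and 2, which match the other mice in depth, Sphk1 was at 0.923 to 1.27 FPKM, and in the shallower FLX replicates 3 to 6 at 0.677 to 2.08, both below the lowest PBS mouse. Fitted alone against PBS mice, neither depth gave a call for Sphk1 (edgeR adjusted p = 0.275 and 0.116). Summed FPKM of 12 neutrophil markers was 1.56 to 3.59 in Ctrl, 7.40 to 26.5 in the 5 PBS mice, 67.2 in PBS replicate 6 and 0.514 to 6.02 in FLX mice. Of the 8 neutrophil genes tested, 3 (S100a8, S100a9 and Ngp) were called higher in PBS versus Ctrl with edgeR. In FLX versus PBS 1 (S100a8) was called lower. Over all 6 PBS mice 4 were called higher and 1 lower in the same comparisons. Over 5 PBS mice all 8 had higher values in PBS versus Ctrl, with a median of 2.51 on the log2 scale. All 8 had lower values in FLX versus PBS (median -1.985). With edgeR 5 and 4 of them had an unadjusted p under 0.05 in these comparisons. DESeq2 called Retnlg, Csf3r, S100a8 and S100a9 in PBS versus Ctrl and S100a8 and S100a9 in FLX versus PBS. limma called Retnlg, S100a8 and S100a9 in the first and Retnlg and S100a8 in the second. Camp and Ngp were at 0 in all Ctrl mice, Ly6g in all FLX mice, and none in all PBS mice. Summed FPKM of 8 injured tubule genes was 352 to 605 in Ctrl, 670 to 1100 in the 5 PBS mice, 4290 in PBS replicate 6 and 464 to 839 in FLX mice. Spp1 and Clu were the most abundant, at means of 676 and 101 FPKM over 18 mice. All 8 had higher values in PBS versus Ctrl, and Clu and Spp1 were called. Havcr1 (edgeR adjusted p = 0.512) and Lcn2 (0.192) were not. Clu was called lower in FLX versus PBS and Vcam1 higher in FLX versus Ctrl. Over 6 PBS mice 3 were called higher in PBS versus Ctrl, 1 lower in FLX versus PBS and 1 higher in FLX versus Ctrl. The summed FPKM of 5 red cell genes, among them the beta globins Hbb-bs and Hbb-bt, was 38.7 to 772 in Ctrl, 145 to 2130 in the 5 PBS mice, 93.9 in PBS replicate 6 and 32.3 to 295 in FLX mice, with overlap between all groups. All 5 had higher values in PBS versus Ctrl (median 1.29 on the log2 scale) and lower values in FLX versus PBS (median -2.71). edgeR and limma called none of these 5 genes in any comparison (with edgeR 0, 5 and 0 at an unadjusted p under 0.05 in PBS versus Ctrl, FLX versus PBS and FLX versus Ctrl), and DESeq2 called all 5 lower in FLX versus PBS. The part of these cells in the Sphk1 result was not tested. An antisense gene, Gm29292, overlaps Sphk1 over 2153 bases and was at 0 in 14 of 18 mice, at most 0.164 FPKM. In bulk tissue, fewer cells of a type and less RNA per cell cannot be told apart.

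Sphk2 (chromosome 7, 45709467 to 45718002, minus strand), the kinase found largely in the nucleus and mitochondria, had the higher level of the pair in all 18 mice except PBS replicate 6. It was at 8.06 to 10.8 FPKM in Ctrl mice (median 10.1). PBS replicates 1 to 6 had 8.20, 10.5, 8.82, 6.99, 8.31 and 7.14 FPKM, and FLX mice 7.62 to 9.05 (median 8.64). Groups overlapped in each comparison. The log2 fold changes were -0.20 in PBS versus Ctrl (SE 0.10, edgeR adjusted p = 0.297), -0.09 in FLX versus PBS (0.817) and -0.28 in FLX versus Ctrl (SE 0.09, 0.0882). Over all 6 PBS mice they were -0.24 (edgeR adjusted p = 0.168), -0.04 (0.924) and -0.28 (0.138). With DESeq2 the last of these was called over 5 PBS mice, at -0.29 (adjusted p = 0.0350). Sphk2 overlaps Dbp, a clock output gene on the opposite strand, over 737 bases, and Rpl18 over 2546 bases. Dbp fell by 3.88 on the log2 scale in FLX versus Ctrl (edgeR adjusted p = 0.000147) and was at 15.9 ± 5.07 FPKM (SD, n = 6) in Ctrl against 1.14 ± 0.355 (SD, n = 6) in FLX mice. The library kit marked strand, but how the authors' counting used strand is not stated, so any share of Dbp fragments in the Sphk2 value was not tested.

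Per transcript length, Sphk1 made up 11.2% ± 3.91 (SD, n = 6) of the summed kinase FPKM in Ctrl mice, 23.2% ± 4.80 (SD, n = 5) in PBS mice and 12.1% ± 3.96 (SD, n = 6) in FLX mice. The share reached 50.9% in PBS replicate 6. The sum of both kinases was 11.1 ± 0.714 FPKM in Ctrl, 11.1 ± 1.07 in PBS (n = 5) and 9.78 ± 0.832 in FLX mice. These shares are descriptive. The lowest PBS share, 16.7%, lay below the highest Ctrl share, 17.9%, and the highest FLX share, 19.5%.

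**Figure D2:**
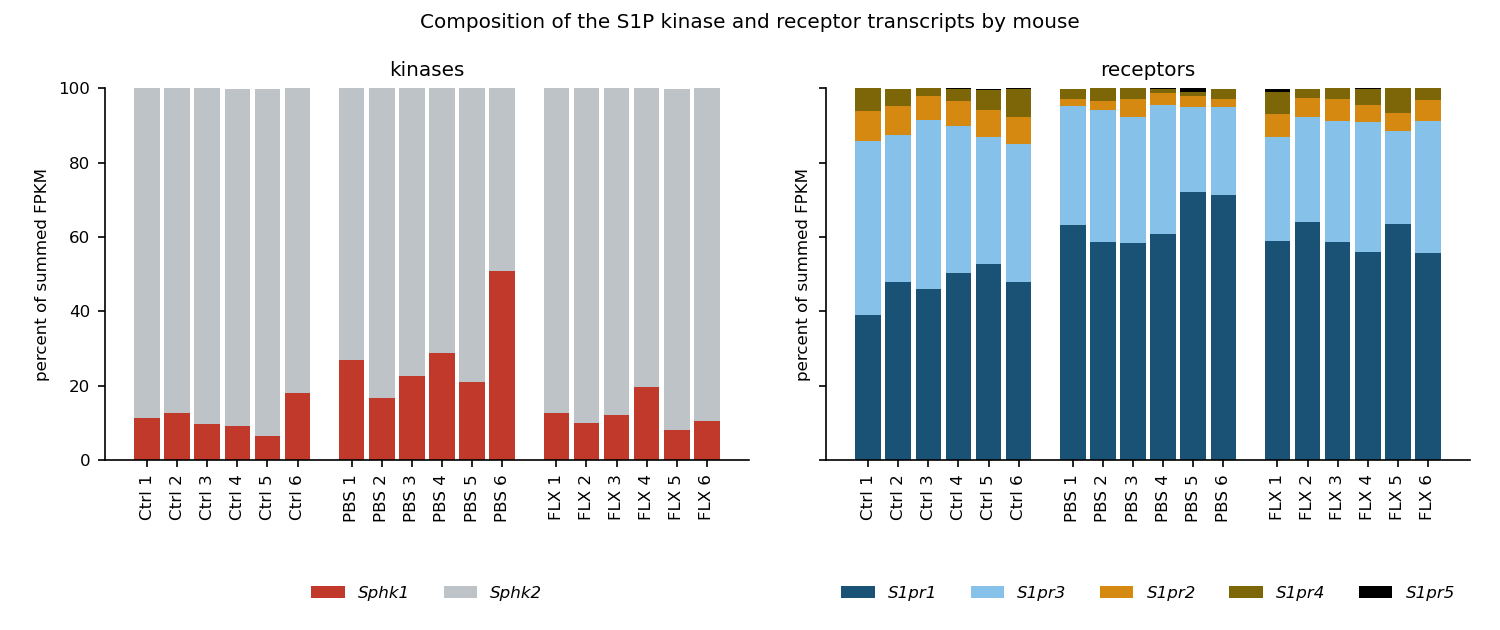
Percent of the summed FPKM of the 2 kinases (left) and the 5 receptors (right) held by each gene, 1 bar per mouse, by group and replicate. Sphk1 took 16.7% to 28.7% of kinase FPKM in PBS replicates 1 to 5 and 50.9% in PBS replicate 6. S1pr1 took 38.9% to 52.7% of receptor FPKM in Ctrl mice and at least 55.8% in every PBS and FLX mouse.

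Sgpl1 and Sgpp1, the members that remove S1P inside the cell, gave no call in any comparison or under any alternative tried. Sgpl1 (chromosome 10, 61098642 to 61147703), the lyase that irreversibly cleaves S1P, was at 6.54 to 9.19 FPKM in Ctrl mice (median 7.81) and 7.54 to 11.7 in FLX mice (median 9.32). PBS replicates 1 to 6 had 8.48, 7.30, 8.17, 8.11, 15.2 and 10.3 FPKM. PBS replicate 5, the mouse with the most brown fat RNA, was the highest. PBS replicate 6 also lay above every Ctrl mouse, and PBS replicates 1 to 4 lay within the Ctrl range. PBS versus Ctrl gave 0.27 on the log2 scale (SE 0.15, edgeR adjusted p = 0.368), and 0.055 without PBS replicate 5. FLX versus PBS gave -0.08 (edgeR adjusted p = 0.914), and 0.14 without PBS replicate 5. FLX versus Ctrl gave 0.19 (0.478). With 6 PBS mice the values were 0.28, -0.09 and 0.19 (edgeR adjusted p = 0.276, 0.867 and 0.504).

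Sgpp1 (chromosome 12, 75714249 to 75735729), the S1P phosphatase of the endoplasmic reticulum, had the highest mean level of the 10 members. Ctrl mice had 16.8 to 24.1 FPKM (median 19.3), PBS replicates 1 to 6 had 21.4, 19.6, 18.7, 21.6, 16.2 and 19.9, and FLX mice 17.2 to 19.5 (median 18.8). All groups overlapped. Log2 fold changes were 0.02 in PBS versus Ctrl (SE 0.10, edgeR adjusted p = 0.952), -0.17 in FLX versus PBS (0.564) and -0.15 in FLX versus Ctrl (0.369), and 0.01, -0.17 and -0.15 over all 6 PBS mice (0.962, 0.511 and 0.405).

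Spns2 (chromosome 11, 72451638 to 72489904) encodes the transporter that releases S1P from endothelial cells. It was at 7.37 to 10.8 FPKM in Ctrl mice (median 8.58), with Ctrl replicate 4 the highest. PBS replicates 1 to 6 had 9.19, 10.1, 11.8, 10.9, 11.7 and 21.7 FPKM. FLX mice had 10 to 15.4 FPKM (median 11.4), and all 6 were above 5 of the 6 Ctrl mice. The FLX versus Ctrl difference was 0.40 on the log2 scale (SE 0.11) with an edgeR adjusted p of 0.0502, so it was not called. It was called with DESeq2 (adjusted p = 0.0163) and with limma on log2(FPKM + 0.1) (adjusted p = 0.0197), and without Ctrl replicate 3 or 4 or FLX replicate 3 or 6. With all 6 PBS mice in the model its edgeR adjusted p was 0.213. PBS versus Ctrl gave 0.30 (SE 0.11, edgeR adjusted p = 0.165), and 0.51 over all 6 PBS mice (0.0869). FLX versus PBS was 0.10 (0.838) over 5 PBS mice and -0.11 (0.854) over 6, so that its sign turned with the left-out mouse. Exact permutation tests gave p = 0.0238 for PBS versus Ctrl, 0.216 for FLX versus PBS and 0.00649 for FLX versus Ctrl, unadjusted.

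**Figure D3:**
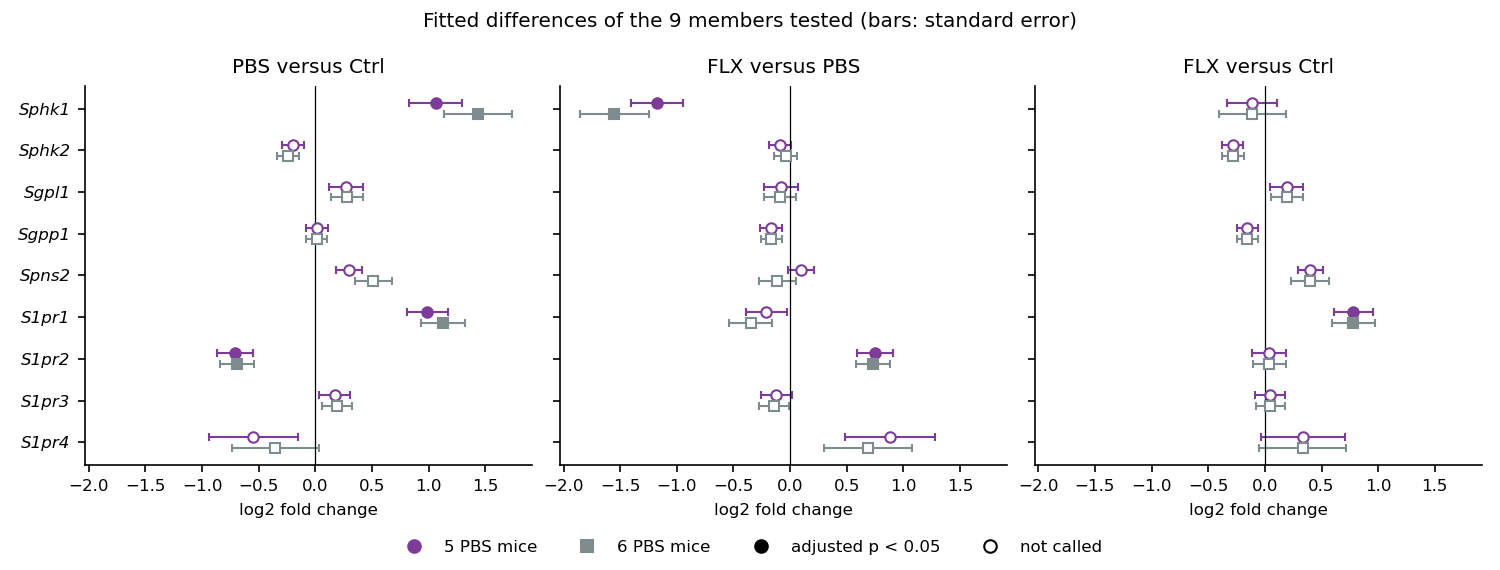
Log2 fold changes of the 9 members tested (horizontal axes) in PBS versus Ctrl, FLX versus PBS and FLX versus Ctrl, fitted by edgeR over 5 PBS mice (purple circles) and all 6 (grey squares). Bars are SEs, and filled symbols have an adjusted p under 0.05. Sphk1 and S1pr2 differ in opposite directions in the first pair of panels and lie near 0 in the third, where S1pr1 alone is filled.

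S1pr1 (ENSMUSG00000045092, chromosome 3, 115710433 to 115715072, minus strand) had the highest level of the receptors in all mice except Ctrl replicate 1. There S1pr3 was higher, at 2.53 FPKM against 2.09. S1pr1 signals through Gi proteins, which lower cyclic AMP. Ctrl mice had 2.09 to 3.39 FPKM (median 3.04, n = 6), PBS replicates 1 to 6 had 6.83, 4.68, 4.2, 4.15, 9.03 and 9.60, and FLX mice 4.43 to 6.30 (median 5.24, n = 6). Every stressed mouse, with or without fluoxetine, was above every Ctrl mouse, and FLX mice lay inside the PBS range. Means were 2.91 ± 0.475 (SD, n = 6), 5.78 ± 2.12 (SD, n = 5) and 5.32 ± 0.806 (SD, n = 6). In PBS versus Ctrl mice S1pr1 rose by a log2 value of 0.99 (SE 0.18, edgeR adjusted p = 0.00416) and by 0.78 in FLX mice (SE 0.17, 0.0192). The FLX versus PBS difference was -0.21 (SE 0.18, edgeR adjusted p = 0.756). Exact permutation tests gave p = 0.00216, 0.00216 and 0.786 in this order. Over all 6 PBS mice the values were 1.13 (edgeR adjusted p = 0.00306), 0.78 (0.0421) and -0.35 (0.492). Without PBS replicate 5 the rise in PBS was 0.79 (edgeR adjusted p = 0.00903). Both calls held without any 1 of the 17 mice, with edgeR adjusted p up to 0.0181 in PBS versus Ctrl and 0.0478 in FLX versus Ctrl. FLX replicates 1 and 2 were at 5.24 and 5.25 FPKM and FLX replicates 3 to 6 at 4.43 to 6.30, so both depths lay above Ctrl. Fitted alone against Ctrl, neither depth gave a call (edgeR adjusted p = 0.283 and 0.0779), nor did all FLX mice in the replicate block with all 6 PBS mice (0.1).

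S1pr1 is set here beside the markers of vessels and other cells. The summed FPKM of 10 endothelial genes was 78.3 to 114 in Ctrl mice, 59.5 to 97.9 in the 5 PBS mice, 172 in PBS replicate 6 and 101 to 122 in FLX mice. None of the 10 was called in PBS versus Ctrl with edgeR (1 at an unadjusted p under 0.05) or limma, and DESeq2 called 1, Egfl7. Their median difference was 0.06. In FLX versus PBS, 9 of 10 had higher values, with a median of 0.28, and 0.07 over all 6 PBS mice. There edgeR called none (6 at an unadjusted p under 0.05), and DESeq2 and limma called 1, Tek. In FLX versus Ctrl, 3 of 10 (Tek, Flt1 and Tie1) were called higher with edgeR, with a median of 0.29. DESeq2 and limma called these 3 and Kdr. Over all 6 PBS mice the calls of Flt1 (edgeR adjusted p = 0.229) and Tie1 (0.196) were lost and that of Tek was not (0.0184). Smooth muscle and pericyte markers, 6 genes, summed to 37.0 to 60.1 FPKM in Ctrl, 53.8 to 88.0 in the 5 PBS mice, 134 in PBS replicate 6 and 54.0 to 115 in FLX mice. Of them Acta2, the smooth muscle actin, was called higher in PBS versus Ctrl (0.92, edgeR adjusted p = 0.0409, not called with limma) and in FLX versus Ctrl (1.12, 0.0156). Of the 6, 5 had higher values in PBS versus Ctrl (median 0.68 on the log2 scale) and 6 in FLX versus Ctrl (0.475). In FLX versus PBS 2 did (median -0.064). With edgeR 4, 1 and 2 had an unadjusted p under 0.05 in PBS versus Ctrl, FLX versus PBS and FLX versus Ctrl. DESeq2 called Acta2 and Tagln in both comparisons with Ctrl and Pdgfrb in FLX versus PBS. limma called Acta2 and Tagln in FLX versus Ctrl. Over all 6 PBS mice edgeR called 2 of them in PBS versus Ctrl. The sum of 6 fat genes was 10.8 to 105 FPKM in Ctrl mice (median 19.4), 20.2 to 820 in the 5 PBS mice (median 74.6), 34.7 in PBS replicate 6 and 19.5 to 547 in FLX mice (median 46.3). PBS replicates 1 (130) and 5 (820) and FLX replicates 2 (202) and 5 (547) lay above every Ctrl mouse. All 6 fat genes had higher values in PBS versus Ctrl (median 2.62 on the log2 scale) and in FLX versus Ctrl (median 2.22). Of them edgeR called Elovl3, a fatty acid elongase of brown fat, in PBS versus Ctrl (5.98, adjusted p = 0.0208), at 0 to 0.0615 FPKM in Ctrl mice and 0.133 to 8.71 in the 5 PBS mice. limma called no fat gene, and DESeq2 called Elovl3 and Ucp1 in PBS versus Ctrl and Elovl3 in FLX versus Ctrl. Lymphocyte markers, 10 genes with Nkg7 and Cd8a the most abundant, summed to 0.988 to 4.11 FPKM in Ctrl, 2.04 to 2.88 in the 5 PBS mice and 2.01 to 4.32 in FLX mice, with no gene of 9 tested called with edgeR, limma or DESeq2. With edgeR 1, 0 and 0 of them had an unadjusted p under 0.05 in PBS versus Ctrl, FLX versus PBS and FLX versus Ctrl. Macrophage sums over 9 genes, with C1qb and C1qa the most abundant, were 53.2 to 63.3, 58.3 to 79.7 and 45.9 to 103 FPKM, and edgeR called none of the 9 (0, 3 and 2 at an unadjusted p under 0.05), where DESeq2 called 2 (Adgre1 and Mrc1) and limma 1 (Adgre1) in FLX versus Ctrl. PBS replicate 6 had a lymphocyte sum of 1.64 FPKM and a macrophage sum of 97.8. The part of endothelial, smooth muscle, fat and immune cell RNA in the S1pr1 result was not tested.

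S1pr2 (ENSMUSG00000043895, chromosome 9, 20962361 to 20976781, minus strand) encodes the receptor that couples most strongly to G12 and G13 proteins and restrains cell migration. Its level was low, at 146 to 423 counts per mouse. Ctrl mice had 0.389 to 0.521 FPKM (median 0.440, n = 6), PBS replicates 1 to 6 had 0.215, 0.209, 0.352, 0.225, 0.357 and 0.300, and FLX mice 0.440 to 0.573 (median 0.462, n = 6). Every PBS mouse, the left-out one included, lay below every Ctrl and FLX mouse. Means were 0.443 ± 0.0479 (SD, n = 6), 0.271 ± 0.0760 (SD, n = 5) and 0.483 ± 0.0523 (SD, n = 6). Relative to Ctrl, S1pr2 fell by 0.71 on the log2 scale in PBS mice (SE 0.16, edgeR adjusted p = 0.0169). In FLX versus PBS mice it rose by a log2 value of 0.75 (SE 0.16, edgeR adjusted p = 0.0341). FLX versus Ctrl gave 0.04 (SE 0.15, edgeR adjusted p = 0.918). Exact permutation tests gave p = 0.00216, 0.00216 and 0.190. Over all 6 PBS mice the log2 fold changes were -0.69 (edgeR adjusted p = 0.0143), 0.73 (0.0306) and 0.04 (0.925). The fall was not called with edgeR without PBS replicate 1 (adjusted p = 0.0583) or 4 (0.0519), with only the 2 groups compared (0.0562) or with the replicate number as a block (0.0516). The rise in FLX was not called without PBS replicate 1, 2 or 4 or any 1 FLX mouse, 9 of 17 omissions, with edgeR adjusted p between 0.0528 and 0.110. It was also lost in 6 of 15 other settings: no filter on low counts, only the 2 groups compared, the replicate block with 5 or 6 PBS mice, and either FLX depth alone (edgeR adjusted p from 0.0617 to 0.420). FLX replicates 1 and 2 had 0.440 to 0.573 FPKM and FLX replicates 3 to 6 had 0.443 to 0.518, both above the highest PBS mouse at 0.357.

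S1pr3 (chromosome 13, 51408639 to 51422797), a receptor of vascular smooth muscle and other cells, was the second most abundant receptor by mean FPKM. It was at 1.89 to 3.19 FPKM in Ctrl (median 2.57), 3.46, 2.82, 2.42, 2.36, 2.86 and 3.18 in PBS replicates 1 to 6, and 2.32 to 3.91 in FLX mice (median 2.48). The groups overlapped, and log2 fold changes were 0.17 in PBS versus Ctrl (SE 0.14, edgeR adjusted p = 0.572), -0.12 in FLX versus PBS (0.836) and 0.05 in FLX versus Ctrl (0.881). All 6 PBS mice gave 0.19, -0.14 and 0.05 (0.444, 0.734 and 0.890). S1pr4 (chromosome 10, 81497747 to 81500132), a receptor of lymphoid and myeloid cells, had only 16 to 116 counts per mouse. It was at 0.140 to 0.415 FPKM in Ctrl (median 0.302), 0.286, 0.261, 0.212, 0.0690, 0.144 and 0.380 in PBS replicates 1 to 6, and 0.193 to 0.654 in FLX mice (median 0.368). Its largest difference, 0.88 in FLX versus PBS, had an SE of 0.40 (edgeR adjusted p = 0.408), and 0.69 (0.507) over all 6 PBS mice. PBS versus Ctrl gave -0.55 (edgeR adjusted p = 0.512) and FLX versus Ctrl 0.33 (0.655). S1pr5 (chromosome 9, 21242912 to 21248443), known from natural killer cells and oligodendrocytes, had no count in 11 of 18 mice and at most 26, in PBS replicate 5. In Ctrl replicate 4, 3 counts of S1pr5 corresponded to 0.0132 FPKM, which is about the level that a count of 0 allows, so changes of S1pr5 were not detectable at this depth.

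Ordered by mean FPKM over 18 mice, the members ran Sgpp1 (19.2), Spns2 (11.2), Sgpl1 (9.0), Sphk2 (8.92), S1pr1 (4.88), S1pr3 (2.70), Sphk1 (1.93), S1pr2 (0.401), S1pr4 (0.299) and S1pr5 (0.0162). The range of each gene over the mice overlapped that of the next in the order, except for S1pr2 after Sphk1, where the lowest Sphk1 value, 0.677, was above the highest S1pr2 value, 0.573. Sgpp1 and Spns2 overlapped through PBS replicate 6 alone, since no other mouse had more Spns2 than 15.4 FPKM or less Sgpp1 than 16.2. Among receptors, S1pr1 made up 47.3% ± 4.74 (SD, n = 6) of summed FPKM in Ctrl mice, 62.7% ± 5.64 (SD, n = 5) in PBS mice and 59.5% ± 3.52 (SD, n = 6) in FLX mice. S1pr2 made up 7.24% ± 0.581, 3.13% ± 1.09 and 5.46% ± 0.702 in the same groups. S1pr3 made up 40.5% ± 4.84, 31.7% ± 5.12 and 30.7% ± 4.18. The summed receptor FPKM was 6.14 ± 0.729 in Ctrl, 9.05 ± 2.48 in PBS and 8.95 ± 1.35 in FLX mice. In PBS replicate 6 the S1pr1 share was 71.3%. The 2 groups of each comparison did not overlap in FPKM for 3, 2 and 1 of the 10 members in PBS versus Ctrl, FLX versus PBS and FLX versus Ctrl, against 3.52%, 2.92% and 3.40% of all genes tested.

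The rest of the pathway was followed in 6 lists with 56 genes, 55 of them tested. Over 5 PBS mice, 1 was called higher and 2 lower in PBS versus Ctrl. In FLX versus PBS 1 was called higher and 0 lower, and in FLX versus Ctrl 4 higher and 2 lower. Of all genes tested, 3.81%, 0.726% and 3.67% were called in these comparisons. The medians of the 55 genes were 0.01, 0.03 and 0.02 on the log2 scale. Among 8 other genes that handle S1P or its products, those called with edgeR over 5 PBS mice were the lipid phosphate phosphatases Plpp3 and Plpp1. Plpp3, which removes phosphate from S1P and lysophosphatidic acid outside the cell, was at 9.56 ± 1.56 FPKM (SD, n = 6) in Ctrl mice, 12.3 ± 2.05 (SD, n = 5) in PBS mice and 15.8 ± 1.19 (SD, n = 6) in FLX mice. On the log2 scale it rose by 0.37 in PBS versus Ctrl (edgeR adjusted p = 0.0430, not called with limma) and by 0.64 in FLX versus Ctrl (0.00178), and by 0.50 and 0.64 over all 6 PBS mice (0.0288 and 0.0184). Plpp1, of the same family, rose by 0.67 on the log2 scale in FLX versus Ctrl (edgeR adjusted p = 0.0144), a call that was lost with all 6 PBS mice in the model (0.124). FLX versus PBS was not called for Plpp3 (0.27, edgeR adjusted p = 0.281) or Plpp1 (0.41, 0.239). The S1P carrier Apom, the most abundant gene of the list, was at 78.3 ± 9.33 FPKM in Ctrl, 64.6 ± 10.4 in PBS and 77.9 ± 7.30 in FLX mice, with no call (edgeR adjusted p = 0.190, 0.593 and 0.675 in PBS versus Ctrl, FLX versus PBS and FLX versus Ctrl). Aldh3a2, which oxidizes the aldehyde that the lyase releases, was at 29.7 ± 3.62, 23.5 ± 2.30 and 28.9 ± 2.95 FPKM. Its PBS versus Ctrl difference of -0.34 was not called over 5 PBS mice (edgeR adjusted p = 0.0611) and was called at -0.39 over 6 (0.0341). DESeq2 called Aldh3a2 in this comparison over the same 5 PBS mice. It also called Sgpp2, the other S1P phosphatase that acts inside the cell, which was at 4.71 ± 0.655 FPKM (SD, n = 6) in Ctrl mice, 5.93 ± 1.01 (SD, n = 5) in PBS mice and 5.41 ± 0.412 (SD, n = 6) in FLX mice. With edgeR the PBS versus Ctrl difference of Sgpp2 was 0.34 (adjusted p = 0.0812), and 0.30 over all 6 PBS mice (0.115).

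**Figure D4:**
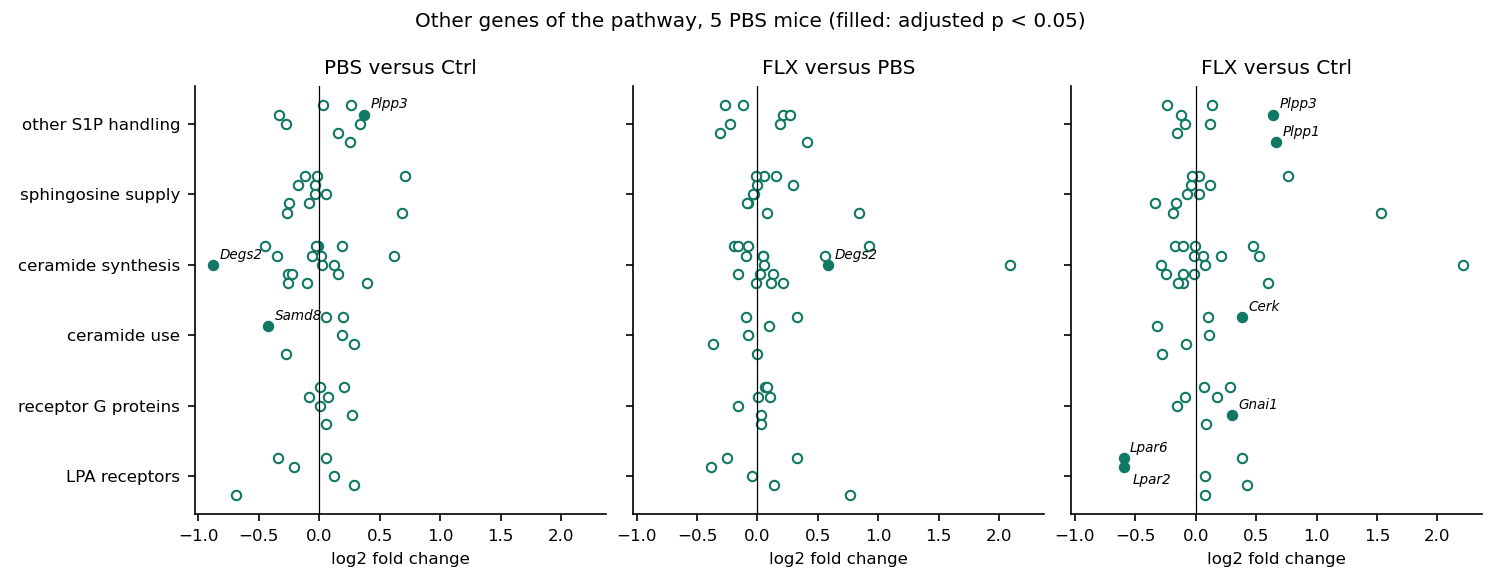
Log2 fold changes (horizontal axes, edgeR, 5 PBS mice) of 55 genes around the S1P members in 6 lists, by comparison. Each circle is 1 gene, and filled, named circles have an adjusted p under 0.05. Most genes lie near 0, and Degs2 is filled on the left in PBS versus Ctrl and on the right in FLX versus PBS.

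Upstream of sphingosine, none of the 11 tested genes that supply sphingosine, among them ceramidases and sphingomyelinases, was called with edgeR or limma in any comparison. With edgeR 2, 2 and 1 had an unadjusted p under 0.05 in PBS versus Ctrl, FLX versus PBS and FLX versus Ctrl, and DESeq2 called 1, Smpd2, in FLX versus Ctrl. Asah1, the acid ceramidase, was at 20.8 ± 0.996, 21.5 ± 1.47 and 22.5 ± 3.21 FPKM in Ctrl, PBS and FLX mice, and Smpd1, the acid sphingomyelinase, at 25.5 ± 2.09, 24.8 ± 2.46 and 25.8 ± 1.51. Of 17 ceramide synthesis genes, Degs2 alone was called. Degs2, which desaturates and hydroxylates dihydroceramide, was at 18 ± 2.40 FPKM (SD, n = 6) in Ctrl mice, 9.77 ± 1.13 (SD, n = 5) in PBS mice and 15.6 ± 2.78 (SD, n = 6) in FLX mice. Relative to Ctrl it fell by 0.88 on the log2 scale in PBS mice (edgeR adjusted p = 0.000896) and rose by 0.59 in FLX versus PBS (0.0420). FLX versus Ctrl gave -0.29 (edgeR adjusted p = 0.190). With 6 PBS mice the values were -0.87 (edgeR adjusted p = 0.000785), 0.58 (0.0358) and -0.29 (0.218). The more abundant Degs1 and the synthase Cers2 were not called. Of 6 genes that use ceramide, Samd8, a ceramide phosphoethanolamine synthase, fell by 0.42 on the log2 scale between Ctrl and PBS mice (edgeR adjusted p = 0.0246). Cerk, the ceramide kinase, rose by 0.38 on the log2 scale in FLX versus Ctrl (edgeR adjusted p = 0.0300), a call lost with all 6 PBS mice (0.288). Over 5 PBS mice limma also called Cerk in FLX versus PBS, and DESeq2 also called Samd8 in FLX versus Ctrl.

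Downstream, 1 of 7 genes for the G protein alpha subunits of the receptors was called with edgeR, and DESeq2 and limma also called Gnai3 in FLX versus Ctrl. Gnai1 was higher by 0.30 in FLX versus Ctrl (edgeR adjusted p = 0.0395), at 17.9 ± 1.51 against 13.7 ± 1.63 FPKM, and with all 6 PBS mice that value was 0.30 (0.0537). Its PBS versus Ctrl difference was 0.27 (edgeR adjusted p = 0.0677), and 0.29 over all 6 (0.0403). Gna12, a partner of S1pr2, was at 29.5 ± 2.41, 27.7 ± 2.67 and 29.6 ± 3.26 FPKM in Ctrl, PBS and FLX mice with no call. Of the 6 receptors for lysophosphatidic acid, a related lipid, Lpar2 and Lpar6 fell in FLX versus Ctrl, each by 0.59 on the log2 scale (edgeR adjusted p = 0.0183 and 0.0332). With all 6 PBS mice the adjusted p was 0.0721 for Lpar2 and 0.0454 for Lpar6. No lysophosphatidic acid receptor was called with edgeR, limma or DESeq2 in PBS versus Ctrl or FLX versus PBS (1 and 2 at an unadjusted p under 0.05 with edgeR).

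Over the 17 mice, the genes whose levels followed Sphk1 most closely by Spearman's rho on log2(FPKM + 0.1) were Tm9sf2 (0.895), Gm14287 (0.873), Shmt1 (0.846), Ip6k2 (0.833) and Ugt1a10 (0.833). Over all 18 mice 3 of these 5 were again among the closest 5, with Tm9sf2 first (0.911). For S1pr1 they were Prelid3b (0.922), Flna (0.919), Rhob (0.917), Cdc42ep4 (0.909) and Anxa6 (0.892). For S1pr2, which was added after its values were seen, they were Rnf135 (0.931), Cdc42ep3 (0.877), Plxnd1 (0.875), Tril (0.873) and Hpgd (0.870). The mice of 3 groups make up these points, so differences between groups and in depth enter each value, and the closest of 20251 genes were picked.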

How the data were processed

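Libraries were made from poly(A) RNA (RIN above 7) with strand marked by dUTP. For read cleaning and alignment to GRCm38 the study's methods name fastp and HISAT-3N, and the submitters' processing notes name cutadapt 1.9, HISAT2 2.0.4 and UMI-tools; both name StringTie (1.3.4d in the notes). The deposited table holds, per gene and mouse, the authors' FPKM and estimated counts. The counts were treated as estimates although whole, since the number of genes at 4 counts (median 720 per mouse) exceeded that at 3 (484.5) and 5 (268), and no source used here names the counting tool.

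Counts were tested with edgeR 4.0.16 (quasi-likelihood, TMM, filterByExpr, 1 model over 3 groups) in R 4.3.3, with Benjamini-Hochberg adjustment over all 20251 genes tested and calls at 0.05. FPKM were compared by exact two-sided permutation tests on log2(FPKM + 0.1) (numpy 2.4.6), given unadjusted. DESeq2 1.42.0, limma 3.58.1, other scalings, filters, pseudocounts, a replicate block and omission of each mouse were alternatives. The edgeR step was tested on simulated data. The closest pair of libraries differed beyond sampling noise (chi-square of 31.4 per gene). The study deleted a PBS mouse for excess inflammatory transcripts without naming it, and PBS replicate 6 was left out as that mouse. This choice rests on measured values (an earlier match to the study's heatmaps). The calls of the members are therefore also given with that mouse. Some other results, most of them of the other gene lists, are given only without it. Members and gene lists were chosen with earlier results of these data known. Of each list, genes called with edgeR in any comparison were named, or the 2 most abundant where none was. For Sphk1 and S1pr1, the 5 genes closest by Spearman's rho were named. Positions are from the GENCODE annotation of GRCm38.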

Additional observations from a re-analysis of the deposited data

Results flagged for a closer look

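The 10 members were searched for single mice that stood apart within a group of 6, by the gap to the nearest mouse as a share of the group's range (limit 0.625), over 30 combinations of member and group. Chance alone flags about 1 in 20 groups where values are normally distributed. That rate does not apply to S1pr5, which was at 0 in 3 of 6 Ctrl mice and in 4 of 6 in each other group. PBS replicate 6 stood apart for Sphk1, at 7.41 FPKM against 2.11 to 3.03 in the other 5 PBS mice, and for Spns2, at 21.7 FPKM against 9.19 to 11.8. FLX replicate 4 had 3.91 FPKM of S1pr3 against 2.32 to 2.82 in the other FLX mice. For S1pr5, PBS replicate 5 had 0.122 FPKM (26 counts) against at most 0.0165, and FLX replicate 1 had 0.0751 FPKM (18 counts) against at most 0.0248.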

How the results depend on the processing

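In PBS versus Ctrl the 3 called members were 2 to 4 under the alternatives tried. In FLX versus PBS, 2 members were called, and 1 was called with no filter on low counts, with only the 2 groups compared, with the replicate block and with the replicate block with all 6 PBS mice. None was called with edgeR with FLX replicates 1 and 2 only or 3 to 6 only, where 0 of all 21863 genes were called for replicates 1 and 2 (1323 at an unadjusted p under 0.05). Sphk1 gave -1.26 (edgeR adjusted p = 0.275) and -1.13 (0.116) there. Omission of single mice gave 0 to 2 called members in FLX versus PBS, and Sphk1 log2 fold changes of -1.37 to -1.05. In FLX versus Ctrl 1 member was called, against 3 with DESeq2 and 2 with limma at each pseudocount (0.1, 0.01 and 1). Over all genes, DESeq2 called 1653 of 16456 with an adjusted p in this comparison. There limma at pseudocount 0.1 called 1214 of 20251, and edgeR 744 of 20251. No member was called in the replicate block with all 6 PBS mice or in either FLX depth alone, and 1 to 2 when 1 mouse was omitted. Small differences that were not called changed sign. Sgpl1 in FLX versus PBS was at 0.048, 0.049 and 0.042 with limma at pseudocounts 0.1, 0.01 and 1, and between -0.156 and 0.138 when 1 mouse was omitted (highest without PBS replicate 5), with 0.074 over all 6 PBS mice without it. Sphk2 there was at 0.010, 0.010 and 0.008 with limma. Spns2 there was at -0.113 over all 6 PBS mice, -0.087 with the replicate block, -0.121 with DESeq2 and -0.140 without PBS replicate 5 in that set. Sgpp1 in PBS versus Ctrl was at -0.031 with upper-quartile scaling, -0.003 with the replicate block and -0.041 to 0.089 when 1 mouse was omitted. In FLX versus Ctrl, S1pr2 was at -0.019 with FLX replicates 3 to 6 and -0.016 without FLX replicate 1, S1pr3 at -0.088 with FLX replicates 1 and 2 and at -0.047 to 0.118 when 1 mouse was omitted, and Sphk1 at -0.297 to 0.022 when 1 mouse was omitted. The causes were not tested.

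Deviations of same-numbered mice from their group means, without PBS replicate 6, gave Pearson's r from -0.205 to 0.227. Mice of different numbers were not compared in this way, so a pairing or batch by number was not tested. With the replicate block the calls of S1pr2 were lost (adjusted p = 0.0516 in PBS versus Ctrl and 0.0989 in FLX versus PBS), and genes called overall went from 772, 147 and 744 to 419, 67 and 258 in PBS versus Ctrl, FLX versus PBS and FLX versus Ctrl. Over the other alternatives, calls over all genes ran from 388 (without PBS replicate 1) to 1662 (DESeq2 with all 6 PBS mice, and also without Ctrl replicate 3) in PBS versus Ctrl, from 0 to 563 in FLX versus PBS and from 4 to 3099 (without Ctrl replicate 3) in FLX versus Ctrl. Calls split into 433 higher and 339 lower in PBS versus Ctrl, and into 314 and 449 with upper-quartile scaling. In FLX versus PBS 62 were higher and 85 lower, and 192 and 63 with limma on log2(FPKM + 0.1), where the median of all genes was 0.076. In FLX versus Ctrl, 422 and 322 became 979 and 235 with limma. The genes most like Sphk1 shared 3 of 5 between 17 and 18 mice. Fits of all 6 PBS mice with DESeq2, with the replicate block or without PBS replicate 5 were added after seeing the data. S1pr2, S1pr4 and S1pr5 are limited by their few counts.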
